A study of Mus musculus with 4 samples.

Results

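The neurexins Nrxn2 and Nrxn3, the neuroligins Nlgn1, Nlgn2 and Nlgn3, and the leucine-rich repeat (LRR) organisers Lrrtm4 and Lrrc4c are 7 genes of synaptic adhesion proteins. Their open chromatin was read by ATAC-seq, which uses the transposase Tn5 to insert adapters where DNA is accessible, in mouse cervical motor neurons at embryonic day 12.5. Cells were sorted for the ChAT::GFP transgene, a reporter of cholinergic neurons that embryos of both genotypes carried, from 2 libraries of Hoxa5-deficient embryos and 2 of control littermates; the sources used here give neither the Hoxa5 allele, nor the strain, nor how many embryos a library holds. The deposited peak intervals of the 4 libraries were merged where they overlapped, and each merged region went to the gene, among protein-coding ones, that held its midpoint, or else to the nearest such gene within 100 kb. The 7 genes received 408 of 199576 regions, 381 inside their bodies and 27 outside. At the outer limit, the farthest region kept lay 91.3 kb from Lrrc4c and had a peak in control library 2 alone, and the nearest one left out lay 100.05 kb from Nrxn3 and had a peak in Hoxa5-deficient library 1 alone.

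Neurexins sit in the presynaptic membrane and bind partners across the synaptic cleft. Each neurexin gene makes long alpha and short beta proteins from separate promoters. Neuroligins are postsynaptic partners of neurexins: neuroligin-1 is known for excitatory synapses, neuroligin-2 for inhibitory ones and neuroligin-3 for both. Lrrtm4 is a postsynaptic protein of excitatory synapses that binds heparan sulphate proteoglycans, and Lrrc4c, also called netrin-G ligand 1, binds the axonal protein netrin-G1. Motor neurons receive excitatory and inhibitory synapses and form cholinergic ones themselves; the GFP sort was made at an age when their axons are growing to their targets.

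The Hoxa5-deficient lists held 192771 and 206114 peak summits and the control lists 165866 and 163016. Background tag density, recovered from the lists and scaling with depth, was 343 and 404 tags per 10 kb in Hoxa5-deficient libraries and 362 and 292 in controls. Hoxa5 itself had 2 regions, both called in all 4 libraries; the part of the gene that was removed is not given, so they do not check the genotype. Peaks within 1 kb of a gene end were found at 6 and 6 of 7 motor neuron marker genes in Hoxa5-deficient libraries and at 7 and 7 in controls, the difference being Isl2. All 4 progenitor, 3 glial and 3 sensory neuron markers had such a peak in every library, muscle markers had 3 and 2 of 3 in Hoxa5-deficient libraries and 2 and 2 in controls, and the endothelial genes Pecam1 and Cdh5 and the blood genes Ptprc and Hba-a1 had none, while Kdr and Spi1 of the same lists had one in every library. A peak at a gene end is not a measure of expression, and the part of other cells in the results was not tested. Fewer cells with an open site and less opening per cell cannot be told apart in these bulk libraries.

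Each of the 7 organiser genes had a region at a gene end that was called in all 4 libraries, though not every listed start had one. Of the 12 regions within 1 kb of an end of the 7 genes, 10 were called in all 4 libraries, 1 in 3 libraries and 1 in a single library of each genotype, so none was found in a single genotype. Of all regions, only 10.3% were called in both Hoxa5-deficient libraries alone and 3.42% in both controls alone. The 12 regions are thus too few to set these genes apart. Strength is given as a percentile of −log10 p within the library's own list, where 100 is the strongest peak, and as the number of tags piled up at the summit, recovered from the authors' fold enrichment and p-value. The 2 compact genes with the strongest starts were Nrxn2 and Nlgn2. The Nrxn2 start (chr19:6418113-6418990) had summit pileups of 629 and 918 tags in Hoxa5-deficient libraries and 509 and 390 in controls, at percentiles of 99.4 and 99.5 against 99.1 and 98.4. The Nlgn2 start (chr11:69836856-69838911), whose region also reaches into the neighbouring gene Tmem256, had 514 and 769 tags in Hoxa5-deficient libraries and 534 and 429 in controls. Both regions lay in the top 2% of every list.

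The outer start of Nlgn1 (chr3:26330955-26332197) had 173 and 225 tags in Hoxa5-deficient libraries and 125 and 90 in controls. An inner Nlgn1 start (chr3:26152454-26154165) was weaker, with 52 and 57 tags in Hoxa5-deficient libraries and 65 and 51 in controls. The starts of both LRR genes had fewer tags than the outer Nlgn1 start in every library. That of Lrrc4c (chr2:96317251-96318421) had 105 and 108 tags in Hoxa5-deficient libraries and 59 and 72 in controls, and that of Lrrtm4 (chr6:80018665-80020269) had 53 and 102 in Hoxa5-deficient libraries and 70 and 45 in controls. Nlgn3, on the X chromosome, had 2 shared regions at its lower-coordinate end; the one at chrX:101299977-101301254 had 34 and 49 tags in Hoxa5-deficient libraries and 38 and 29 in controls. Tags are not scaled for depth; those of Nlgn2, Lrrtm4, Nlgn3 and the inner Nlgn1 start overlapped between genotypes. None of these starts had a changed rank in a test over all regions shared by the 4 libraries, with limma adjusted p from 0.246 to 0.896.

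Away from the starts, 3 genes had their strongest region, by mean percentile, elsewhere. In Lrrc4c it lay deep in the gene (chr2:97466186-97466889), with 225 and 336 tags in Hoxa5-deficient libraries and 287 and 241 in controls. In Nlgn1 it lay inside the body (chr3:25807468-25808074), with 96 and 145 tags in Hoxa5-deficient libraries and 119 and 78 in controls. For Nlgn3 it lay 11.5 kb outside the body (chrX:101332137-101333465), with 368 and 511 tags in Hoxa5-deficient libraries and 336 and 303 in controls. The tags of the genotypes overlapped in Lrrc4c and Nlgn1 and did not in Nlgn3, and none of the 3 ranks passed the test, with limma adjusted p from 0.326 to 0.940.

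Promoter sequences from RefSeq (GRCm38.p6, the assembly that mm10 is built from) were matched for 5 of the 7 genes, as 9 promoters of 300 bases each. Of these 9, 7 overlapped a peak in all 4 libraries (both Lrrtm4 promoters among them lay in the same region), against 45.3% of 32851 promoters in the table. The other two were the first and second of 3 listed Nrxn3 starts: the first overlapped no peak and the second a peak in control library 1 alone, while the third lay in the strongest region of the gene. The sequences of 4 promoters inside a region of all 4 libraries are shown because they are accessible starts of 3 long genes whose inner regions are compared next (Nrxn3, Lrrtm4, Lrrc4c) and, for comparison, the strongest one among the 9 (Nlgn2). Capitals mark matches, on either strand, to the motifs GGGCGG (GC box), TGATNNAT (Hox with Pbx) and CANNTG (E-box).
Nrxn3, chr12:89812233-89812532, plus strand: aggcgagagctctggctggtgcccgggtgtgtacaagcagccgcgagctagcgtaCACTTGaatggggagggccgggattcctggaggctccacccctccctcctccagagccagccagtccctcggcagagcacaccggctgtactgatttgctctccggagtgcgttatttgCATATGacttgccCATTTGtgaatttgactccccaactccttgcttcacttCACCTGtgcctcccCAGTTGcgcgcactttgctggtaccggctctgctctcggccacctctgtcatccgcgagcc
Lrrtm4, chr6:80018627-80018926, plus strand: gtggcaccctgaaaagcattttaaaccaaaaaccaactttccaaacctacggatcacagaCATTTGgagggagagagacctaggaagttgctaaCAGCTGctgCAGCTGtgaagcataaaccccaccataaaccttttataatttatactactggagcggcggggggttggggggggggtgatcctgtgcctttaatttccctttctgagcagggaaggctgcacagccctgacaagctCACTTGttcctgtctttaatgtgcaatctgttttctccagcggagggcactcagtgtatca
Lrrc4c, chr2:96317919-96318218, plus strand: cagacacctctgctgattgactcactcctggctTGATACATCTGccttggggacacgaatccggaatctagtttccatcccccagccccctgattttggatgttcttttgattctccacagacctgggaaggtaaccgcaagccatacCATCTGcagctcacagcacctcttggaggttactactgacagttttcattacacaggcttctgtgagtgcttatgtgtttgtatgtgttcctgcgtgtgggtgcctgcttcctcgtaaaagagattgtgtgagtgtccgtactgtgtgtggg
Nlgn2, chr11:69837735-69838034, minus strand: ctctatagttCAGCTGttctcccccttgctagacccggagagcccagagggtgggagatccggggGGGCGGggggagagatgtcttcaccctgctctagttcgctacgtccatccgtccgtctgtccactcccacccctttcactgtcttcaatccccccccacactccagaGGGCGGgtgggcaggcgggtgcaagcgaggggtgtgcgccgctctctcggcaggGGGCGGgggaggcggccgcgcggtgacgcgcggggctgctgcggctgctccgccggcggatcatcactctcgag
The Nrxn3 promoter shown held 5 E-boxes, the Lrrtm4 promoter shown 4 and that of Nlgn2 1 E-box and 3 GC boxes. The other Lrrtm4 promoter, in the same region, held 2 E-boxes. The Lrrc4c promoter held the 1 match to TGATNNAT among the 9, overlapping the first of its 2 E-boxes. Over all 9 promoters, 6 held an E-box, 2 a GC box and 1 TGATNNAT, against 72.3%, 35.7% and 8.85% of all promoters. TAATTA (homeodomain), ATTGAT (Onecut core), TGACGTCA (CRE) and the palindromic Ebf and Nrf1 motifs were in none of the 9, against 5.29%, 7.54%, 1.79%, 0.904% and 0.971% of all promoters.

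Inside the 4 long genes, the Hoxa5-deficient libraries had more regions than the controls, and inside the 3 compact genes they had about as many. Over all 7 genes there were 275 and 279 regions in Hoxa5-deficient libraries and 193 and 200 in controls. The ratio of the means was 1.41, against 1.39 for all genes over 500 kb and 1.19 for all regions. This ratio pools long and compact genes. The 4 long genes alone had 249 and 250 regions in Hoxa5-deficient libraries and 165 and 176 in controls.

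Lrrtm4, whose body spans 791 kb (chr6:80018858-80810162), had the largest ratio among the 7, 2.67, with 28 and 28 regions in Hoxa5-deficient libraries and 11 and 10 in controls. Lrrc4c, 1314 kb long (chr2:96318169-97631672), had 46 and 50 in Hoxa5-deficient libraries and 29 and 29 in controls. Nrxn3, 1612 kb long (chr12:88722701-90334935), had 129 and 132 in Hoxa5-deficient libraries and 92 and 104 in controls. Nlgn1, 911 kb long (chr3:25421808-26332866), had 46 and 40 in Hoxa5-deficient libraries and 33 and 33 in controls. In each of these 4 genes both Hoxa5-deficient libraries were above both controls. With the lists cut to equal peak numbers the ratio over all 7 genes was 1.13, against 1.09 at genes over 500 kb and 0.961 for all regions. Nlgn1 then overlapped, with 32 and 35 regions in Hoxa5-deficient libraries and 31 and 33 in controls. Nrxn3 then had 108 and 107 in Hoxa5-deficient libraries and 92 and 104 in controls, Lrrc4c 39 and 35 in Hoxa5-deficient libraries and 29 and 29 in controls, and Lrrtm4 16 and 18 in Hoxa5-deficient libraries and 9 and 10 in controls.

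The compact genes overlapped between genotypes. Nrxn2, 114 kb long (chr19:6418756-6533217), had 20 and 20 regions in Hoxa5-deficient libraries and 20 and 18 in controls. Nlgn3, 22.2 kb long (chrX:101299179-101321350), had 4 and 6 in Hoxa5-deficient libraries and 5 and 5 in controls, and Nlgn2, 14.7 kb long (chr11:69823123-69837784), 2 and 3 in Hoxa5-deficient libraries and 3 and 1 in controls. Per 100 kb of body, Nrxn2 held 16.6 and 16.6 regions in Hoxa5-deficient libraries and 16.6 and 14.9 in controls, and Lrrtm4 3.16 and 3.16 in Hoxa5-deficient libraries and 1.14 and 1.14 in controls. Among the 4 long genes the order of region density in the controls was Nrxn3, Nlgn1, Lrrc4c and Lrrtm4; in Hoxa5-deficient libraries Lrrc4c and Lrrtm4 came close, at 3.20 and 3.27 for Lrrc4c. An exact permutation test over the 3 splits of 4 libraries cannot go below p = 0.333, which is the two-sided p for each of the 4 long genes, so no count of regions could pass 0.05.

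**Figure D1:**
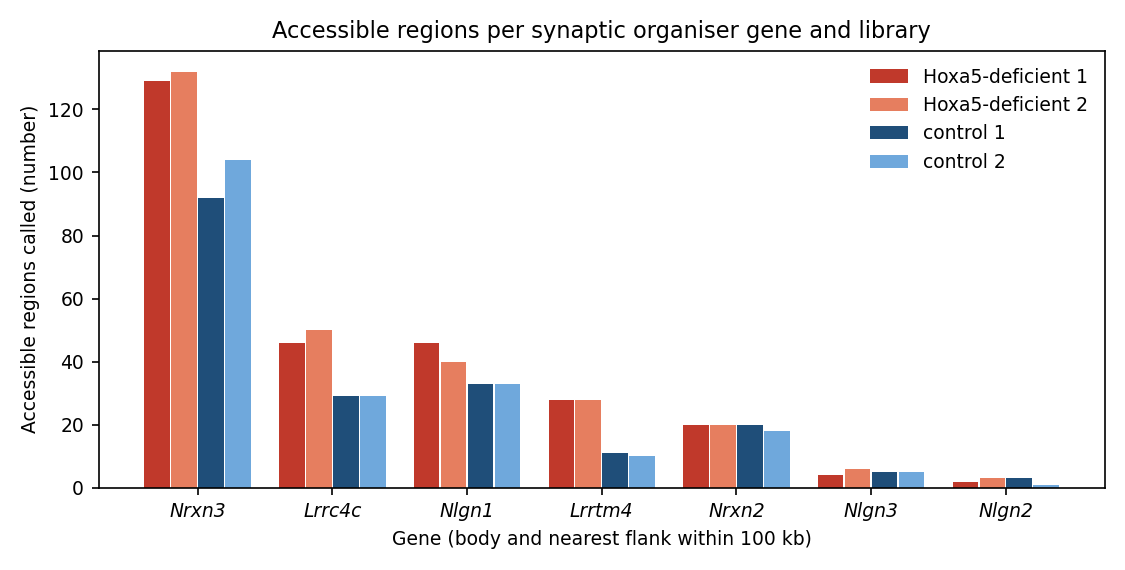
Number of accessible regions assigned to each gene (y axis, counts) in the 2 Hoxa5-deficient libraries (red shades) and the 2 control libraries (blue shades), 1 bar per library. Lrrtm4 stands at 28 and 28 in Hoxa5-deficient libraries and 11 and 10 in controls, while the bars of Nrxn2, Nlgn3 and Nlgn2 overlap between genotypes.

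Regions called in both Hoxa5-deficient libraries and neither control (Hoxa5-deficient-only) numbered 69 of 408, or 16.9%, against 10.3% of all regions and 15.1% of the 18439 regions of genes over 500 kb. Regions called in both controls and neither Hoxa5-deficient library (control-only) numbered 14, or 3.43%, against 3.42% of all regions and 3.22% at genes over 500 kb. Regions of all 4 libraries numbered 118, or 28.9%, against 33.0% of all regions and 25.5% at genes over 500 kb. The share of control-only regions was thus that of the whole genome. The 16.9% pools long and compact genes. In the 4 long genes alone, 68 of 369 regions (18.4%) were Hoxa5-deficient-only, against 15.1% at genes over 500 kb. Control-only regions there were 14 (3.79%), against 3.22%. By gene, Lrrtm4 had 12 Hoxa5-deficient-only regions (26.1%) and 0 control-only, Lrrc4c 15 (20.5%) and 3, Nlgn1 13 (18.8%) and 4, and Nrxn3 28 (15.5%) and 7. The compact genes had 1 Hoxa5-deficient-only region, in Nrxn2, and 0 control-only among 39 regions. The 1 region is 2.56% of the 39, against 7.2% Hoxa5-deficient-only regions at genes under 150 kb, where 3.53% were control-only. With lists cut to equal peak numbers, 44 of 343 organiser regions were Hoxa5-deficient-only (12.8%, against 7.78% of all regions and 11.6% at genes over 500 kb). With peaks kept at −log10 q of at least 5, 39 of 207 were Hoxa5-deficient-only (18.8%, against 13.8% of all regions and 22.1% at genes over 500 kb). Control-only regions were then 3 (1.45%, against 4.37% and 3.99%). The 18.8% again includes the compact genes. In the long genes the Hoxa5-deficient-only share was then 38.5% in Lrrtm4, 31.4% in Lrrc4c, 21.2% in Nlgn1 and 16% in Nrxn3. These shares lay on both sides of 22.1%.

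**Figure D2:**
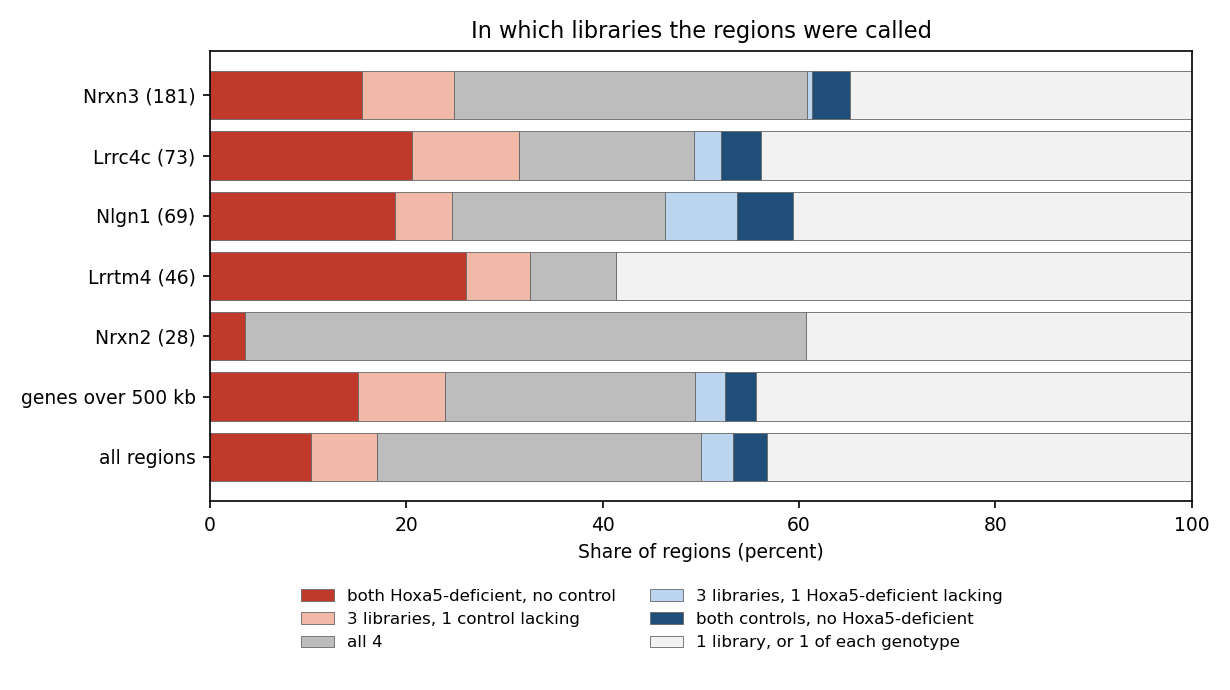
Share of regions (x axis, percent) by the libraries in which they were called, for the 5 organiser genes with more than 20 regions (number of regions in brackets), for all genes over 500 kb and for all regions. The darkest red segment, regions of both Hoxa5-deficient libraries and neither control, covers 26.1% of Lrrtm4 regions, 15.1% at genes over 500 kb and 10.3% of all regions.

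Regions of a single genotype were narrow and weak beside the shared ones. The definitions favour this, since a shared region had to be called in 4 lists and joins their intervals, against 2 lists. It was not particular to these genes: over all regions the median width was 398 bp for Hoxa5-deficient-only and 765 bp for shared regions. The 69 Hoxa5-deficient-only regions had a median width of 379 bp and median summit pileups of 18 and 23 tags in the Hoxa5-deficient libraries, and the 14 control-only regions 294 bp and 18 and 14.5 tags in the controls. The 118 regions of all 4 libraries had a median width of 684.5 bp and median pileups of 41 and 51 tags in Hoxa5-deficient libraries and 40 and 34 in controls. No region of a single genotype lay within 1 kb of a gene end, but the 12 regions there are too few to set these genes apart.

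The Hoxa5-deficient-only regions with the highest lower percentile lay in Nrxn3 and Lrrc4c. The one in Nrxn3 (chr12:88926321-88926935) had 64 and 68 tags in Hoxa5-deficient libraries, at percentiles of 82.5 and 78.2. That in Lrrc4c (chr2:97036945-97037852) had 59 and 52 tags, at 80.7 and 71.4. In Lrrtm4 the strongest one (chr6:80557748-80558362) had 27 and 42 tags, in Nlgn1 (chr3:25696695-25697203) 27 and 36, and in Nrxn2 (chr19:6440626-6441052) 24 and 20. None of these had a peak in either control list. The strongest control-only regions were weaker, with 28 and 28 tags in the controls in Nrxn3 (chr12:89661268-89661823), 24 and 19 in Lrrc4c (chr2:96667167-96667401) and 23 and 17 in Nlgn1 (chr3:25653069-25653275).

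Another 41 regions were called in 3 libraries. A control lacked the peak in 32 of them and a Hoxa5-deficient library in 9, out of 408 organiser regions. Of all 199576 regions, these 2 kinds made up 6.67% and 3.34%. Of the 18439 regions of genes over 500 kb they made up 8.8% and 3.0%. Regions that a control lacked were thus the commoner kind at long genes in general too. In Nrxn3 the numbers were 17 and 1, in Lrrc4c 8 and 2, in Lrrtm4 3 and 0 and in Nlgn1 4 and 5. The strongest contrasts, chosen after their values were seen, were a region in Lrrc4c and one in Lrrtm4. The Lrrc4c region (chr2:97140254-97141163) had 109 and 159 tags in Hoxa5-deficient libraries, against 16 in control library 1 and no peak in control library 2. The Lrrtm4 region (chr6:80279196-80279839) had 45 and 75 tags in Hoxa5-deficient libraries, against 15 in control library 1 and no peak in control library 2.

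**Figure D3:**
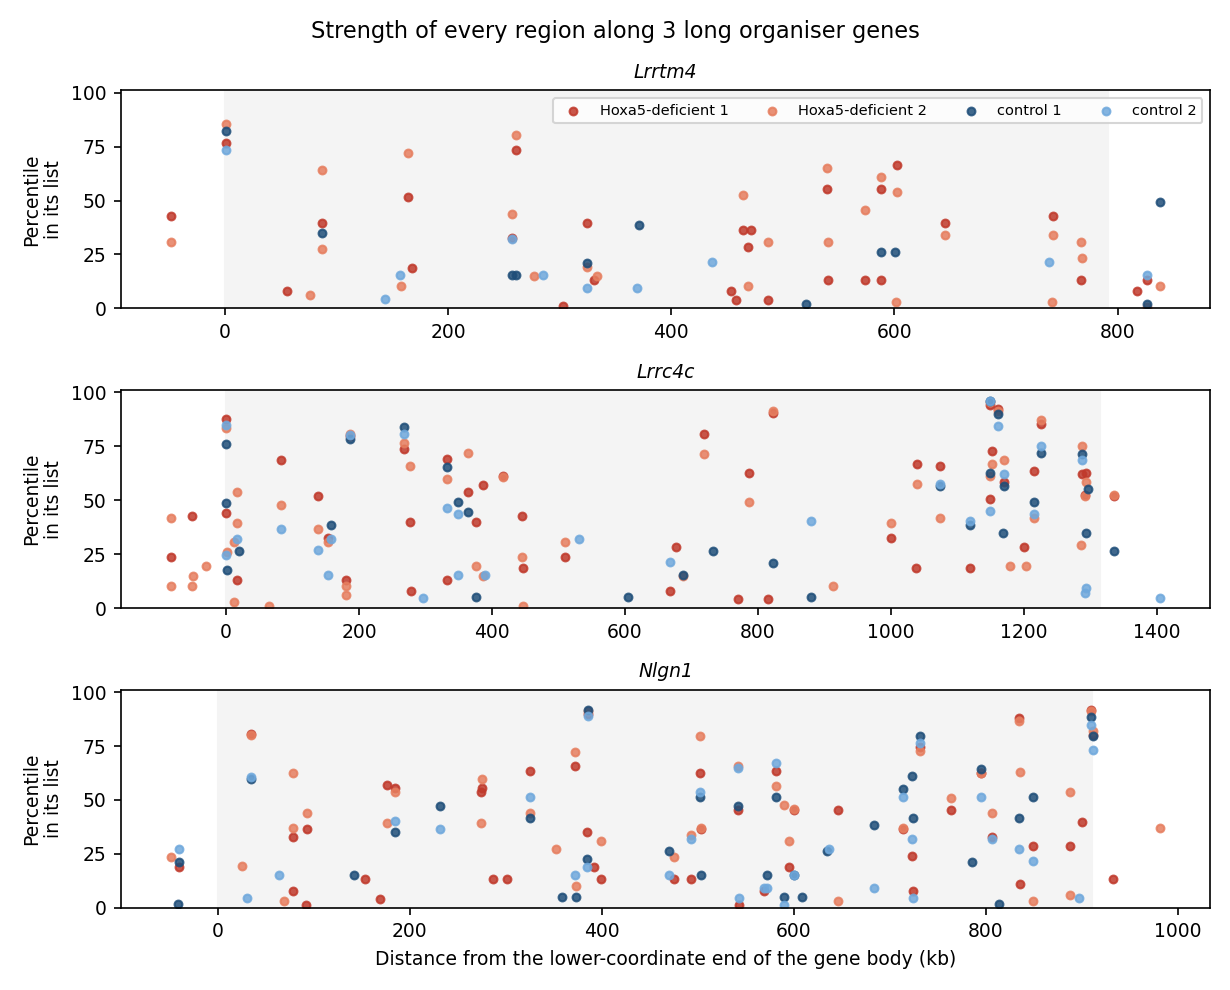
Percentile of each region within its library's own list (y axis, 100 is strongest) along Lrrtm4, Lrrc4c and Nlgn1 (x axis, kb from the lower-coordinate end of the body, shaded), with Hoxa5-deficient libraries in red and controls in blue. In Lrrc4c the pair of red points at 822.5 kb stands at 90.2 and 91.5, above a control point at 21.0.

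The 118 organiser regions present in all 4 libraries were compared by rank. Ranks of −log10 p were taken anew among the 65789 regions that all 4 lists share, so that each library ranks the same regions, and their normal scores were tested with limma, with Benjamini-Hochberg adjustment over all 65789. Of the 118, 3 ranked higher and 2 lower in Hoxa5-deficient libraries at an adjusted p under 0.05, beside 2.4% and 1.65% of all shared regions, so the number of calls was near that of the genome. Both Hoxa5-deficient ranks lay above both control ranks in 36 of 118 and below both in 29, beside 29.1% and 32.8% of all shared regions. The median rank difference, Hoxa5-deficient minus control, was −1.23 percentile points over the 118 regions and −0.529 over all shared regions. The median ranks of single libraries, a different measure, differed by 4.298 points (SD between replicates).

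In Nrxn3, 2 regions far inside the gene, on the side of its lower-coordinate end, were weaker without Hoxa5. The region 188 kb into the gene (chr12:88910791-88911143) had 26 and 33 tags in Hoxa5-deficient libraries and 76 and 64 in controls. Its ranks among shared regions were 25.6 and 25.5 in Hoxa5-deficient libraries and 73.0 and 73.6 in controls, a difference of −1.28 in normal score (SE 0.114, limma adjusted p = 0.0448). The region 327 kb into the gene (chr12:89049181-89050033) had 24 and 39 tags in Hoxa5-deficient libraries and 86 and 62 in controls, a difference of −1.24 (SE 0.166, limma adjusted p = 0.0483). Tag counts of the genotypes did not overlap in either region.

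Towards the other end of Nrxn3, on both sides of the last listed start, 2 regions were stronger without Hoxa5. The region 1050 kb into the gene, before that start (chr12:89772573-89773526) had 56 and 96 tags in Hoxa5-deficient libraries and 14 and 13 in controls, a difference of 2.23 (SE 0.170, limma adjusted p = 0.0448). The region 1132 kb into the gene, after it (chr12:89853744-89854982) had 88 and 143 tags in Hoxa5-deficient libraries and 21 and 20 in controls, a difference of 1.53 (SE 0.134, limma adjusted p = 0.0448). In list percentiles they stood at 78.4 and 84.4 and at 87.1 and 89.3 in Hoxa5-deficient libraries, against 9.70 and 15.4 and 41.8 and 46.5 in controls. The start region between them (chr12:89811710-89812842), which holds the promoter printed above, had 301 and 433 tags in Hoxa5-deficient libraries and 164 and 124 in controls, but its difference of 0.36 did not pass (SE 0.116, limma adjusted p = 0.146); in a fit added after the data were seen, with a variance trend (limma's prior variance following the mean rank), its adjusted p was 0.00798.

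The fifth call lay in Nlgn1, 834 kb from the lower-coordinate end of its body, inside the gene from its outer start (chr3:26255859-26256604), with 97 and 116 tags in Hoxa5-deficient libraries and 21 and 15 in controls. Its ranks among shared regions were 75.3 and 70.8 in Hoxa5-deficient libraries and 17.1 and 8.97 in controls, a difference of 1.76 (SE 0.186, limma adjusted p = 0.0448). The limma adjusted p of 0.0448, printed for every call but the Nrxn3 region at 327 kb, was the lowest over all 65789 shared regions. All 2662 calls of the genome thus lay between it and 0.05. All 5 calls ended when any of the 4 libraries was left out, with limma adjusted p from 0.0891 to 0.183, and when summits were summed (0.0520 to 0.0595), and 10 regions were called higher and 8 lower, beside 11.1% and 9.53% of all shared regions, with the variance trend. The fit without a trend treats strong and weak regions as equally variable, and 2 libraries a group leave few degrees of freedom.

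**Figure D4:**
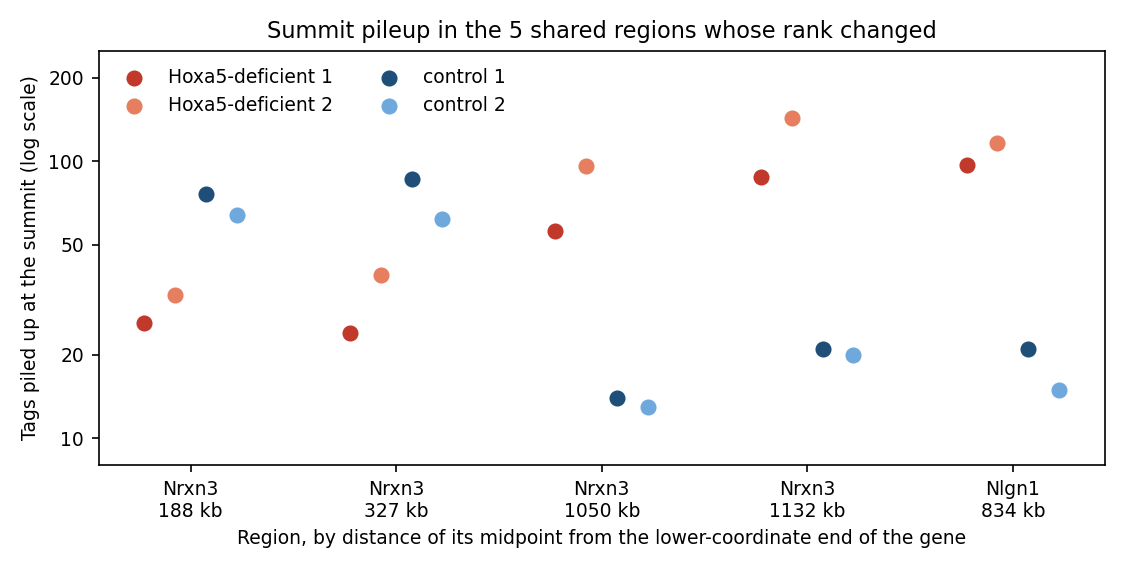
Tags piled up at the summit (y axis, log scale) in the 5 shared organiser regions with a changed rank, 1 point per library, Hoxa5-deficient in red and control in blue; the x axis names the gene and the distance of the region from its lower-coordinate end. The first 2 Nrxn3 regions have from 24 to 39 tags in Hoxa5-deficient libraries and from 62 to 86 in controls, and the other 3 regions from 56 to 143 in Hoxa5-deficient libraries and from 13 to 21 in controls.

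The Nrxn3 calls below and above 0 lay on different stretches of the gene, a description made after the values were seen and without a test. Upstream of the last listed start, which is 1090 kb into the gene, 49 shared regions had a median rank of 30.1 in Hoxa5-deficient libraries and 41.1 in controls, and 31 of the 49 ranked lower in Hoxa5-deficient libraries. At or downstream of it, 16 shared regions had a median rank of 38.9 in Hoxa5-deficient libraries and 27.0 in controls, with 8 of 16 ranked higher and the median of the rank differences at −0.368, against −5.29 upstream. Upstream both Hoxa5-deficient ranks were above both controls in 14 of 49 regions and below in 17. Downstream these numbers were 7 and 3 of 16. Over all shared regions the shares were 29.1% and 32.8%, so by this measure the upstream stretch was near the genome. With the variance trend, 7 Nrxn3 regions were called lower, from 13.3 kb before the gene to 791 kb into it, and 6 higher, from 1050 to 1291 kb. One of the 6 higher regions, 1196 kb into the gene (chr12:89918128-89918914), had 282 and 412 tags in Hoxa5-deficient libraries and 86 and 83 in controls. Regions of a single genotype were 13 Hoxa5-deficient-only and 6 control-only upstream, and 15 and 1 downstream, where fewer regions lay (67 against 114). The region at the lower-coordinate end of the gene itself (chr12:88722617-88723257) hardly differed, at 161 and 208 tags in Hoxa5-deficient libraries and 163 and 162 in controls.

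**Figure D5:**
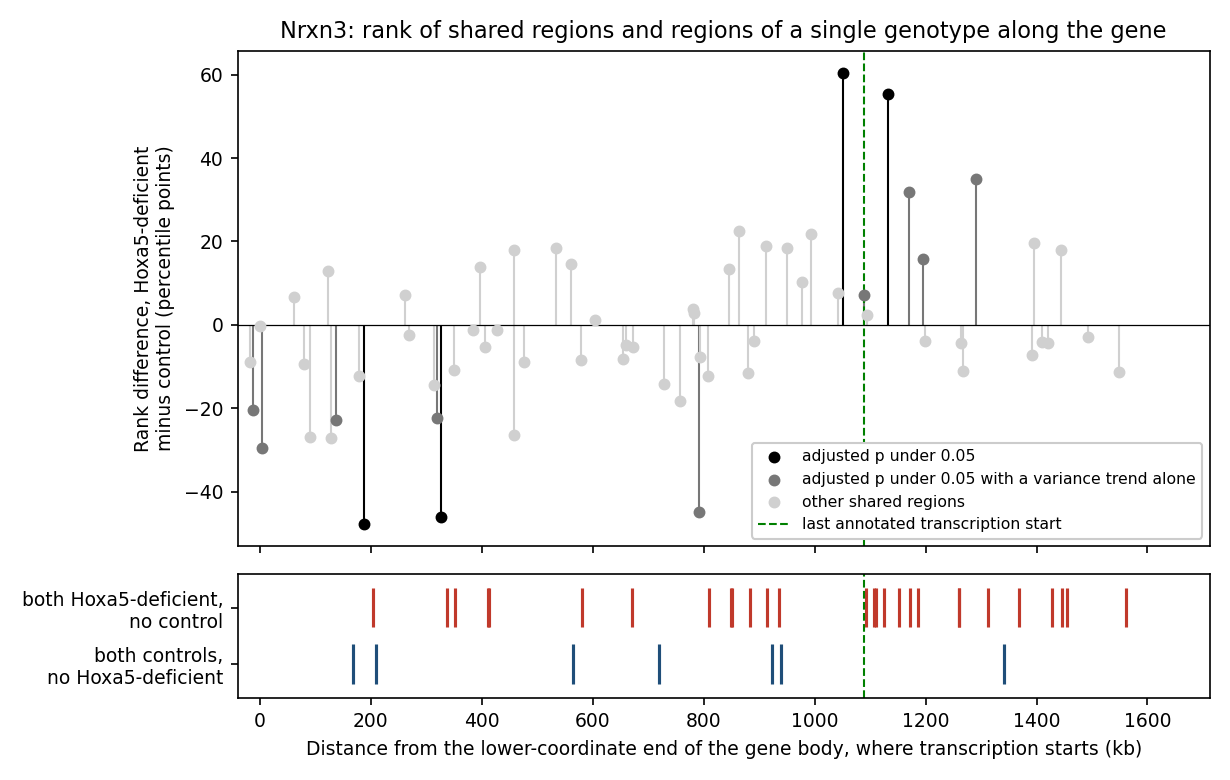
Upper panel, for the 65 Nrxn3 regions of all 4 libraries, the difference in mean rank among shared regions, Hoxa5-deficient minus control (y axis, percentile points), against the distance from the lower-coordinate end of the gene body (x axis, kb); black and dark grey points passed the tests named in the legend. Lower panel, positions of the 28 Hoxa5-deficient-only regions (above) and 7 control-only regions (below). Calls below 0 lie at up to 791 kb, and calls above 0 lie from 1050 kb on, around the last annotated start (dashed line).

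The partners of these proteins were described as a list of 42 genes: other LRR proteins (Lrrtm, Lrrc4, Slitrk and Lrfn families), receptor phosphatases, netrin-Gs, cerebellins, calsyntenins, neurexophilins and others. They held 936 regions, of which 138 (14.7%) were Hoxa5-deficient-only and 28 (2.99%) control-only, against 10.3% and 3.42% of all regions and 15.1% and 3.22% at genes over 500 kb, of which the list holds 5. More Hoxa5-deficient-only than control-only regions were found at 27 of the 42 genes, the reverse at 6 and equal numbers at 9, in a genome with 20640 and 6825 such regions. The genes with most of them are led by Ptprd, a receptor phosphatase that binds Slitrk proteins, which had 27 Hoxa5-deficient-only and 6 control-only regions, and Clstn2, a calsyntenin, with 25 and 3. Ntng1, which encodes the netrin-G1 bound by Lrrc4c, had 13 and 1, with 32 and 42 regions in Hoxa5-deficient libraries and 18 and 19 in controls. Ptprf, a phosphatase of the same family as Ptprd, had 1 and 3. Of the 296 regions of the list found in all 4 libraries, 13 ranked higher and 4 lower at a limma adjusted p under 0.05, beside 2.4% and 1.65% of all shared regions. No region of the genome was called by limma with any library left out, with summed summits or with a replicate block, where from 12641 to 18017 of the shared regions had an unadjusted p under 0.05.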

How the data were processed

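Per the labels' protocols, GFP-sorted cells underwent Tn5 transposition and Nextera library preparation. Tools named in the submitters' processing notes are MACS2 2.2.4, SAMtools 1.9, Bowtie2 2.3.4.3 and FastQC 0.11.9, and the build is mm10; parameters and any Tn5 read shift are not given in the sources used here. For every library the authors deposited its own peak list, with start, end, summit, a score, a fold enrichment ratio and −log10 of the p-value and q-value. These values belong to single peaks of the authors' lists and were used to rank, filter or describe them; the score was not used. The lowest deposited −log10 p was 2.00 in each list.

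Intervals overlapping by 1 bp or more were merged. Gene bodies were those of 21883 protein-coding genes of RefSeq GRCm38.p6. Pileups are the whole numbers that met the deposited −log10 p within 0.001, found for 99.9995% or more of summits per list; lowest backgrounds assume 150 bp tags. Percentiles and pileups cover no differences between animals. Ranks were tested with limma 3.58.1 (R 4.3.3) without a block or trend, on 2 Hoxa5-deficient and 2 control libraries; the fit was tested on simulated data. The libraries are called biological replicates by the submitters, with no further detail.

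The 7 genes and the gene lists were chosen with earlier results of these data known, so no list was tested. Every gene was described; regions named were, per gene, the one at a gene end, the strongest, the strongest of each genotype-specific kind, and the rank calls. Any further region or gene was picked with its values in view, except the 3 listed partners per direction with most genotype-specific regions and the genes nearest in length. Python 3.11.15 was used for all else. Alternatives were a stricter threshold, equal peak numbers, summit windows of 75 bp on each side, gene bodies only, other rank measures, a replicate block, a variance trend and leaving out each library.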

Additional observations from a re-analysis of the deposited data

How the results depend on the processing

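The number of Hoxa5-deficient-only organiser regions, 69, was 39 with the stricter threshold and 44 with equal peak numbers, 90 with summit windows and 66 within gene bodies. That of control-only regions, 14, was 3 with the stricter threshold and 24 with summit windows, 15 with equal peak numbers and 14 within gene bodies. Leaving out 1 library, so that 1 genotype rests on a single list, gave from 83 to 113 Hoxa5-deficient-only regions (113 without Hoxa5-deficient library 1 and 112 without library 2) and from 16 to 45 control-only regions (45 without control library 1 and 42 without library 2). These settings change which peaks count, and Hoxa5-deficient-only regions outnumbered control-only ones in each of them. The same held over all regions, so this excess is not particular to the organiser genes. The genome shares were 10.3% and 3.42% in the main setting and 13.8% and 4.37% with the stricter threshold. They were 7.78% and 5.64% with equal peak numbers and 9.70% and 3.36% with summit windows. No genome shares are given here for the other settings.

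The number of organiser regions with a changed rank, 5, was 5 when ranked by fold enrichment or within gene bodies and 18 with the variance trend. By fold enrichment the calls over all shared regions rose from 2662 to 3750, while the organiser number stayed the same. With the stricter threshold the organiser number was 3, of 82 regions left to test, beside 2021 calls over all regions shared there. Of the main calls, the Nrxn3 regions at 188 and 1132 kb passed there (limma adjusted p = 0.0406 for each). The Nrxn3 region at 327 kb did not (limma adjusted p = 0.0525). Those at 1050 kb in Nrxn3 and 834 kb in Nlgn1 had no shared region there. The 3 were thus not all among the 5 calls. The number was 0 by limma when summits were summed or with a replicate block, and no call held without any 1 library. At an unadjusted limma p under 0.05, the main fit had 36 of 118 regions, beside 18719 of all 65789. Summed summits had 36 beside 18017, and the replicate block 30 beside 17440. The 2662 calls over all shared regions were likewise 13577 with the variance trend and 0 with summed summits, the replicate block and each library left out, where from 12641 to 18017 had an unadjusted p under 0.05; the cause was not tested. With a library left out, the lone one of its genotype is assumed to vary like the other two. No other tool was run. Same-numbered libraries showed no shared deviation in ranks: their deviations from the group means had a correlation of −0.00125 over 65789 regions. Whether same-numbered libraries were made as pairs is not given, and this value cannot settle it. The median rank difference of −1.23 ranged from −1.91 to 0.602 over the settings. These values are smaller than the 4.298 points between replicates, which is the spread of single-library median ranks in the main setting. It is not a spread of the median difference itself. The group medians of rank, 42.3 in Hoxa5-deficient libraries and 38.8 in controls, differed in the other direction. Regions of a single genotype had as few as 10 tags at the summit, so a missing call at this depth does not show a closed region.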

Other observations

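Each of the 4 long genes was also set beside the 3 genes nearest to it in length. Beside Nrxn3, Fhit had 80 and 85 regions in Hoxa5-deficient libraries and 55 and 52 in controls. In the same order, Csmd1 had 70 and 77 against 53 and 57, and Ctnna3 41 and 45 against 29 and 30. Beside Nlgn1, Dpp6 had 65 and 82 against 57 and 43. Wwox had 115 and 130 against 91 and 97, and Adamtsl1 46 and 50 against 42 and 51. The genes beside Lrrtm4 come next. Inpp4b had 25 and 32 regions in Hoxa5-deficient libraries and 21 and 22 in controls, Ptprn2 had 86 and 108 in Hoxa5-deficient libraries and 91 and 76 in controls, and Camta1 had 134 and 137 in Hoxa5-deficient libraries and 118 and 113 in controls. Beside Lrrc4c, Pde4d had 92 and 97 in Hoxa5-deficient libraries and 61 and 65 in controls, Tenm3 had 125 and 131 in Hoxa5-deficient libraries and 102 and 103 in controls, and Naaladl2 had 29 and 31 in Hoxa5-deficient libraries and 22 and 22 in controls. Of the 54 regions of Inpp4b, 14 were Hoxa5-deficient-only and 6 control-only, beside 12 and 0 of the 46 regions of Lrrtm4; Ptprn2 had 15 and 3 of 156 and Camta1 14 and 5 of 190. Of the 141 regions of Pde4d, 26 were Hoxa5-deficient-only and 4 control-only, beside 15 and 3 of the 73 regions of Lrrc4c; Tenm3 had 25 and 7 of 190 and Naaladl2 9 and 4 of 50. Of the 135 regions of Fhit, 29 were Hoxa5-deficient-only and 6 control-only, beside 28 and 7 of the 181 regions of Nrxn3. Csmd1 had 24 and 1 of 147 and Ctnna3 13 and 5 of 67. Beside 13 and 4 of the 69 regions of Nlgn1, Dpp6 had 20 and 1 of 119. Wwox had 24 and 5 of 180 and Adamtsl1 8 and 7 of 86. These are descriptions of single genes, with no test.

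Among the partner genes, the cerebellins Cbln1 and Cbln2, secreted proteins that bind neurexins, each had 3 regions called higher in rank in Hoxa5-deficient libraries and 0 called lower, of 8 and 7 shared regions (limma, adjusted p under 0.05 over all shared regions, of which 2.4% were called higher). These calls too were lost with any library left out, with summed summits and with a replicate block, where limma called 0 of all shared regions and from 12641 to 18017 had an unadjusted p under 0.05. Cbln4 had none of 7. The genes of this paragraph were chosen after their values were seen.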
